A study of Homo sapiens and Mus musculus with 5 samples.

Results

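The 20 SNPs described here are those that the deposited tables name by rs number, out of 347 SNPs; the others are named by chromosome and position. They were carried by 57 of 984 fragments and made up 94 of the 1625 alleles of fragments. In 17 of these SNPs the SNP was placed with 50, 100 or 150 bases of the fragment in front of it, and in the other 3 (rs12040455, rs1498232 and rs56335113) only 2 of the placements were present. The bases of the alleles, the positions of these SNPs and the sequences of their fragments were not used here, so the alleles are called 1 and 2 as in the tables.

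Fragments bearing schizophrenia-linked SNPs were tested by STARR-seq in cultured cells that had been transfected with a plasmid library. HEK-293T (human embryonic kidney), Neuro-2a (mouse neuroblastoma) and SH-SY5Y (human neuroblastoma) each gave 3 RNA libraries, numbered 1 to 3. PC-12 gave 2 RNA libraries, numbered 1 and 3; it comes from a rat pheochromocytoma, though its label gives mouse as the organism. All 4 lines were set against the same 3 libraries of the untransfected plasmid pool, called the input. The labels' protocols speak of transfection in triplicate and name no day, so the p-values below measure the spread between these libraries, part of which may be technical. Within a line the RNA and input libraries are fitted with 1 common spread, although the RNA libraries differed more from each other. No genotype or drug treatment separates the groups, and each line is 1 line.

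An enhancer is a stretch of DNA that raises transcription of a gene through the transcription factors that bind it. In STARR-seq the tested fragment is placed inside the reporter transcript, so that an active fragment increases the amount of RNA carrying its own sequence. A SNP in a binding site can change how well a factor binds, and the 2 alleles of a fragment can then give unequal RNA. The place of the SNP in the fragment sets which neighbouring sequence comes with it.

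Activity is the log2 of RNA over input for 1 allele, so that 0 is the typical allele of a library, and levels are given as CPM, counts scaled to the size of the library. The RNA libraries held 5875437 to 10201521 counts and the input libraries 6380682 to 8421333. The rs-named alleles were well represented in the input, with a median of 595 CPM in the scaling of Neuro-2a, against 472 CPM for the position-named alleles. All 4 tables held 88 of the 94 alleles, 3 of the tables held 5, and allele 2 of rs11121172 with 150 bases in front was in PC-12 alone. Counts of 0 stood in 15 of 276 RNA values in HEK-293T (14 of them in RNA library 2), 14 of 270 in Neuro-2a, 9 of 188 in PC-12 (all in RNA library 3) and 9 of 276 in SH-SY5Y. In the input, library 2 held a count of 0 for allele 1 of rs12040455 with 50 bases in front and, in the table of PC-12, for allele 2 of rs11121172 with 150.

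The RNA libraries numbered 1 stood apart from the others for these alleles. Pearson's r of the activities between RNA libraries 2 and 3 was 0.49 in HEK-293T (n = 78 rs-named alleles with counts in both), 0.75 in Neuro-2a (n = 82) and 0.83 in SH-SY5Y (n = 84). Between library 1 and library 2 or 3 it was -0.04 and 0.38 in HEK-293T, 0.32 and 0.17 in Neuro-2a, and 0.37 and 0.09 in SH-SY5Y. In PC-12 libraries 1 and 3 gave 0.43. These points share the input and their library, and alleles are not independent replicates. The allelic effects of RNA library 1 were also the smaller ones: their median size was 0.21 in HEK-293T, 0.49 in Neuro-2a, 0.29 in PC-12 and 0.30 in SH-SY5Y, against 0.79 to 1.25 in the other 7 RNA libraries. What sets library 1 apart was not tested, and the calls without it are given after each comparison within a line. Below, a value that passed or was called did so by edgeR with all libraries, unless another fit is named.

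The first comparison asked which alleles gave more or less RNA than their share of the input. Of the rs-named alleles, 12 distinct alleles of 10 SNPs passed an adjusted p of 0.05 by edgeR's quasi-likelihood test in at least 1 line, with 12 calls above the input and 3 below it, and 3 of these alleles passed in 2 lines. Among the 90 rs-named alleles of Neuro-2a, 4 calls were above the input and 1 below, where 4.08% and 1.7% of all 1471 alleles were called above and below (5.78% in either direction). The 92 of SH-SY5Y held 3 calls above and 1 below, where 7.43% and 5.51% of all 1562 alleles were called (12.9% in either direction). The 94 of PC-12 held 5 calls above and 1 below, where 5.64% and 4.77% of all 1614 alleles were called (10.4% in either direction). In HEK-293T none of 92 passed by edgeR, where 2.37% of 1561 alleles did. There 16 had an unadjusted p under 0.05 (23.1% of all alleles), DESeq2 called 14 (23.3% of all) and limma-voom called 1 (4.04% of all), allele 2 of rs4648845 with 50 bases in front. The share of rs-named alleles called in either direction was 5.56% in Neuro-2a, 6.38% in PC-12 and 4.35% in SH-SY5Y, near or under the share of all alleles.

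rs4648845 had the most calls. With 50 bases in front, its allele 2 had 1792, 3170.1 and 3673 CPM in the RNA libraries of Neuro-2a, against 987, 939.7 and 1054 CPM in the input. In SH-SY5Y the same allele had 2034, 3565 and 2528 CPM in RNA, against 991, 942 and 1053 CPM in the input. All 6 RNA values lay above all input values. The log2 activity was 1.53 ± 0.29 in Neuro-2a (SE, n = 3 RNA and 3 input libraries; edgeR adjusted p = 0.0418) and 1.44 ± 0.23 in SH-SY5Y (edgeR adjusted p = 0.0227). In HEK-293T, with 1605, 1769 and 2140.0 CPM in RNA, it was 0.83 ± 0.16 (adjusted p = 0.0685, edgeR), and in PC-12, with 1415 and 2160.2 CPM, it was 0.85 ± 0.21 (adjusted p = 0.0822, edgeR); neither passed.

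With 150 bases in front, it was allele 1 of rs4648845 that was above the input in Neuro-2a. This allele had 2549, 1922 and 2100.0 CPM in RNA, against 746, 687 and 736 CPM in the input, which did not overlap. Its log2 activity of 1.60 ± 0.16 had the smallest adjusted p of the rs-named alleles (0.00955, edgeR). In SH-SY5Y it had 1116, 1044 and 769.9 CPM in RNA with a log2 activity of 0.43 ± 0.19, in PC-12 914 and 1289 CPM and 0.61 ± 0.19, and in HEK-293T 774, 753 and 779.7 CPM and 0.03 ± 0.17, none of which passed. Allele 2 of the same fragment had 277, 188 and 157 CPM in the RNA of Neuro-2a, against 247, 255 and 272 CPM in the input, values that overlapped.

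rs942820 had 2 calls above the input, both for allele 2 with 50 bases in front, in Neuro-2a and in PC-12. In Neuro-2a the RNA libraries had 4581, 3169 and 3563 CPM, against 1511, 1472 and 1529 CPM in the input, a log2 activity of 1.33 ± 0.17 (edgeR adjusted p = 0.0221). In PC-12 they had 2340.4 and 2219 CPM, against 1503, 1471 and 1516 CPM in the input, a log2 activity of 0.61 ± 0.07 (n = 2 RNA and 3 input libraries; edgeR adjusted p = 0.0192). The RNA and input values did not overlap in either line. SH-SY5Y, with 1859, 1012 and 1669.8 CPM in RNA, and HEK-293T, with 1603, 1087 and 812 CPM, overlapped the input and gave 0.01 ± 0.24 and -0.42 ± 0.27. The sign in SH-SY5Y turned in 5 of the alternative fits, given in the closing section.

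rs301797 also had 2 calls above the input, both for allele 1 with 100 bases in front, in PC-12 and in SH-SY5Y. The RNA of SH-SY5Y had 1659, 1938 and 2391 CPM, against 998, 1194 and 1076 CPM in the input, and the log2 activity was 0.87 ± 0.17 (edgeR adjusted p = 0.0332). The RNA of PC-12 had 1914 and 2859.9 CPM, against 988, 1191 and 1068 CPM in the input, and the log2 activity was 1.14 ± 0.21 (edgeR adjusted p = 0.0488). All RNA values of both lines were above the input values. In Neuro-2a the allele had 1332, 2202 and 1928 CPM and a log2 activity of 0.74 ± 0.22, and in HEK-293T 1624, 1308 and 2140.5 CPM and 0.58 ± 0.22, neither of which passed.

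Another 5 alleles were above the input in 1 line each. Allele 2 of rs1498232 with 100 bases in front had 779, 846 and 602 CPM in the RNA of Neuro-2a, against 287, 284 and 269 CPM in the input, a log2 activity of 1.41 ± 0.23 (edgeR adjusted p = 0.0278). Its RNA values in SH-SY5Y were 389.9, 944 and 567 CPM, in HEK-293T 399.6, 729 and 381 CPM and in PC-12 507 and 1182 CPM. Every one of these 11 values was above the input. The log2 activity in the 3 lines without a call was 1.18 ± 0.35, 0.79 ± 0.35 and 1.60 ± 0.39, in that order.

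Allele 2 of rs3900555 with 100 bases in front had 1593, 1529 and 1601 CPM in the RNA of SH-SY5Y, against 755, 831 and 657 CPM in the input, a log2 activity of 1.07 ± 0.14 (edgeR adjusted p = 0.0136). These 3 RNA values were close to each other and above all input values. Its RNA in Neuro-2a had 894, 939 and 1120.0 CPM with a log2 activity of 0.40 ± 0.19, in HEK-293T 1075, 1042 and 1244 CPM with 0.53 ± 0.18, and in PC-12 1205 and 842 CPM with 0.46 ± 0.22. None of these 3 passed.

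The remaining calls above the input were in PC-12. Allele 2 of rs11121172 with 100 bases in front had 6083 and 3712 CPM in RNA, against 1769, 1744 and 1753 CPM in the input, a log2 activity of 1.48 ± 0.23 (edgeR adjusted p = 0.0313). Allele 1 of rs6673880 with 150 bases in front had 603 and 976 CPM in RNA, against 277, 288 and 292 CPM in the input, a log2 activity of 1.47 ± 0.24 (edgeR adjusted p = 0.0361). Allele 1 of rs4660761 with 150 bases in front had 1870.1 and 1862 CPM in RNA, against 1349.7, 1316 and 1316 CPM in the input, a smaller log2 activity of 0.49 ± 0.08 (edgeR adjusted p = 0.0322). In all 3 the RNA values lay above the input values.

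In the other lines the first of these 3, rs11121172, depended on RNA library 1. Its allele 2 had 3229, 1613 and 1324 CPM in the RNA of HEK-293T, 3884, 1613 and 1794 CPM in Neuro-2a and 4188, 1791 and 1855 CPM in SH-SY5Y, so that library 1 was the high one in each. Without it the log2 activity was -0.0754 in Neuro-2a and -0.32 in HEK-293T, against 0.46 ± 0.36 and 0.17 ± 0.35 with it. In PC-12 library 1 was also the higher one, and the log2 activity without it was 1.08, from library 3 alone. Allele 1 of rs6673880 had 574, 1169 and 804 CPM in the RNA of HEK-293T, 347, 1414 and 210.3 CPM in Neuro-2a and 181, 973 and 779 CPM in SH-SY5Y, against an input of 278 to 294 CPM in the scaling of Neuro-2a. In Neuro-2a its log2 activity of 1.20 ± 0.74 rested on RNA library 2, without which it was -0.051. Allele 1 of rs4660761 was above the input in all libraries, with 1760.4, 2096 and 2296 CPM in HEK-293T, 1977, 2524 and 3188 CPM in Neuro-2a and 1752, 2287 and 1623 CPM in SH-SY5Y, and log2 activities of 0.57 ± 0.14, 0.94 ± 0.20 and 0.50 ± 0.16, none past the threshold.

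The 3 calls below the input were in rs302719 and rs581459. Allele 1 of rs302719 with 50 bases in front had 191, 184 and 110.2 CPM in the RNA of Neuro-2a, against 628, 661 and 663 CPM in the input, a log2 activity of -2.01 ± 0.31 (edgeR adjusted p = 0.0267). Its RNA in SH-SY5Y had 585, 361 and 524 CPM, in HEK-293T 508, 171 and 515 CPM and in PC-12 357 and 439 CPM, all below the input values of their line. The log2 activity there was -0.41 ± 0.23, -0.76 ± 0.45 and -0.70 ± 0.15, in that order, and did not pass.

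Allele 1 of rs581459 with 50 bases in front had 626, 659.9 and 722 CPM in the RNA of SH-SY5Y, against 1261, 1301 and 1246 CPM in the input, a log2 activity of -0.92 ± 0.13 (edgeR adjusted p = 0.0183). Its allele 2 with 150 bases in front had 791 and 850.4 CPM in the RNA of PC-12, against 1309.6, 1215 and 1241 CPM in the input, a log2 activity of -0.61 ± 0.11 (edgeR adjusted p = 0.0418). Both alleles were below the input in every RNA library of every line. For the first, Neuro-2a had 1158, 975 and 858 CPM, HEK-293T 1062, 830.3 and 620.2 CPM and PC-12 930.3 and 911 CPM in RNA, with log2 activities of -0.35 ± 0.17, -0.65 ± 0.23 and -0.45 ± 0.09. For the second, HEK-293T had 1026, 319.5 and 967 CPM, Neuro-2a 1009, 745 and 939 CPM and SH-SY5Y 968, 810.4 and 1078 CPM, with -0.76 ± 0.45, -0.49 ± 0.17 and -0.41 ± 0.15. None of these 6 activities passed.

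These calls depended on the libraries used. Without RNA library 2 the call of rs4648845 in Neuro-2a (allele 2 with 50 bases in front) was lost at an edgeR adjusted p of 0.0807, and without library 3 at 0.0617. The call of rs301797 in SH-SY5Y was lost without library 2 (edgeR adjusted p = 0.0575). All 15 were kept when RNA library 1 of the line was left out, where 25 of the rs-named alleles were called in HEK-293T (31.8% of all alleles), 35 in Neuro-2a (41.3% of all), 82 in PC-12 (90.1% of all) and 47 in SH-SY5Y (54.9% of all). In PC-12 a single RNA library was left, assumed to vary like the input. Leaving out any 1 of the 3 input libraries left no rs-named call in any line by edgeR. In these fits 7 to 13 rs-named alleles of a line had an unadjusted p under 0.05. In Neuro-2a without input library 1, none of all 1471 alleles was called either. There 13.7% of all alleles had an unadjusted p under 0.05, against 7.78% of the rs-named ones. DESeq2 called 18 rs-named alleles in Neuro-2a (27.9% of all alleles), 33 in PC-12 (40.3% of all) and 19 in SH-SY5Y (31% of all), the edgeR calls among them.

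Alleles that lay on 1 side of the mean of the input in all 11 RNA libraries were counted next, without a test. Of the 88 rs-named alleles in all 4 tables, 7 were above the input in every RNA library, where 7.87% of all 1436 alleles were, and 7 were below it in every RNA library, where 12% were. The 7 above were 6 alleles already described, those of rs1498232, rs301797, rs3900555, rs4660761 and the 2 of rs4648845, and allele 2 of rs11121172 with 50 bases in front. That allele had 321, 1079.6 and 861 CPM in the RNA of HEK-293T, 227, 705 and 1026 CPM in Neuro-2a, 205 and 432 CPM in PC-12 and 310.3, 1027 and 698 CPM in SH-SY5Y, against 182 to 196 CPM in the input scaled with Neuro-2a. RNA library 1 was the lowest of each line, and the log2 activity of 1.96 ± 0.48, 1.80 ± 0.57, 0.77 ± 0.37 and 1.85 ± 0.45 did not pass in any line. Without library 1 it passed in the 3 lines with 3 RNA libraries, at 2.18 to 2.32. In PC-12, where a single RNA library was then left, it was 1.21.

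The alleles below the input everywhere were the 3 described, of rs302719 and rs581459, and 4 more that passed in no line. Allele 1 of rs12083902 with 50 bases in front had 208, 152 and 315 CPM in the RNA of HEK-293T, 349, 257 and 184 CPM in Neuro-2a, 289 and 205 CPM in PC-12 and 181, 267 and 123 CPM in SH-SY5Y, against 470.0 to 504 CPM in the input scaled with Neuro-2a. It was the lowest-lying of the 7 by its highest RNA library, whose log2 ratio was still -0.47, and its log2 activity lay between -1.35 in SH-SY5Y and -0.88 in Neuro-2a. Allele 1 of rs7537052 with 150 bases in front had 472, 173 and 371 CPM in the RNA of HEK-293T, 635, 256 and 181 CPM in Neuro-2a, 558 and 400.1 CPM in PC-12 and 337, 179.7 and 416 CPM in SH-SY5Y, against an input of 651 to 708 CPM. Its log2 activity lay between -1.15 in SH-SY5Y and -0.51 in PC-12.

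The other 2 held a count of 0 in 1 RNA library each. Allele 1 of rs112345465 with 150 bases in front had 303, 204 and 159 CPM in the RNA of HEK-293T, 260.4, 79.7 and 8.18 CPM in Neuro-2a, 191 and 0 CPM in PC-12 and 214, 134 and 355 CPM in SH-SY5Y, against an input of 362 to 386 CPM. Allele 2 of rs12040455 with 50 bases in front had 335, 235 and 339.9 CPM in HEK-293T, 0, 298 and 279 CPM in Neuro-2a, 290.2 and 59.5 CPM in PC-12 and 336, 237 and 183 CPM in SH-SY5Y, against an input of 311 to 367 CPM. For rs12040455 several RNA values lay within the range of the input libraries, and the highest log2 ratio to their mean was -0.0042.

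In 2 alleles the activity was large in RNA libraries 2 and 3 and not in library 1, and neither passed. These 2 are examples named after their values were seen, and alleles of this pattern were not counted. Allele 1 of rs1498232 with 150 bases in front, which was rare in the input at 14.5 to 15.8 CPM, had 3.45, 824 and 630.3 CPM in the RNA of HEK-293T, 0, 1369 and 1579.5 CPM in Neuro-2a, 25.7 and 465 CPM in PC-12 and 0, 873 and 376 CPM in SH-SY5Y. Its log2 activity of 6.01 ± 2.50 in Neuro-2a was the highest of the rs-named alleles there, with an adjusted p of 0.205 by edgeR. Allele 2 of rs34196118 with 100 bases in front had 483, 3585 and 2514 CPM in the RNA of HEK-293T, 148, 1939 and 2229 CPM in Neuro-2a, 407 and 1895 CPM in PC-12 and 377, 2965 and 2198 CPM in SH-SY5Y, against 365 to 377 CPM in the input. RNA library 1 was the lowest of each line in both. Without it both alleles were called in the 3 lines with 3 RNA libraries, rs1498232 at 5.39 to 6.57 and rs34196118 at 2.46 to 2.98. In PC-12, with a single RNA library left, they were at 4.94 and 2.35.

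Allele 2 of rs301798 with 150 bases in front, also named after its values were seen, was almost missing from RNA. It had 4.61, 0 and 7.48 CPM in the RNA of HEK-293T, 35.5 and 0 CPM in PC-12 and 0.288, 14.2 and 0 CPM in SH-SY5Y, against inputs of 819 to 893 CPM, 786 to 850.2 CPM and 789 to 859 CPM. It was not in the table of Neuro-2a. No RNA value reached the input, yet each line had 1 RNA library at 0 and the adjusted p by edgeR was 0.0822, 0.194 and 0.0624 in HEK-293T, PC-12 and SH-SY5Y.

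The second comparison asked whether the 2 alleles of a fragment differed, as the log2 activity of allele 2 minus that of allele 1. Both alleles were present for 36 rs-named fragments in HEK-293T, 34 in Neuro-2a, 37 in PC-12 and 35 in SH-SY5Y, and no fragment of rs34196118 or rs6673880 held both. No rs-named fragment passed an adjusted p of 0.05 by edgeR in any line, where the share of all fragments called was 0% in HEK-293T, 0.187% in Neuro-2a, 0% in PC-12 and 0.166% in SH-SY5Y. With no adjustment, a p under 0.05 was found for 3 in HEK-293T, 3 in Neuro-2a, 3 in PC-12 and 1 in SH-SY5Y. These were 8.33%, 8.82%, 8.11% and 2.86% of the rs-named fragments, in that order of lines, against 4.13%, 10.9%, 7.24% and 13.5% of all fragments. DESeq2 called 3 in Neuro-2a (12.7% of all fragments), 6 in PC-12 (10.7% of all), none in HEK-293T (1.98% of all) and none in SH-SY5Y (4.49% of all), and limma-voom called none in any line, as for all fragments (0%). The median size of the effect was 0.99 in HEK-293T, 0.74 in Neuro-2a, 0.71 in PC-12 and 0.76 in SH-SY5Y, against 1.01, 0.93, 0.79 and 0.75 for position-named fragments.

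Allele 2 of rs4648845 with 150 bases in front was the lower one in Neuro-2a in all 3 libraries. The allelic effect was -1.71, -1.86 and -2.25 in RNA libraries 1, 2 and 3, and the fitted value was -1.94 ± 0.27 (SE; edgeR adjusted p = 0.102). It had the smallest adjusted p of the rs-named fragments, and DESeq2 called it, with an adjusted p of 8.8e-18. In HEK-293T the libraries gave -0.27, -0.61 and -1.19 and in SH-SY5Y -0.01, -1.26 and -1.64, with fitted values of -0.69 ± 0.44 and -0.98 ± 0.48. In PC-12 libraries 1 and 3 gave 0.02 and -1.87, and the fitted -0.93 ± 0.65 was 0.020 without library 3.

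The fragments with an unadjusted p under 0.05, named after their values were seen, covered 7 SNPs. In Neuro-2a they were rs4648845 with 150 bases in front, rs302719 with 50, at 1.57, 0.83 and 2.27 in the libraries and 1.55 ± 0.53 fitted, and rs56335113 with 100, at 0.88, 0.67 and 1.46 and 1.00 ± 0.39. These were also the 3 that DESeq2 called there. In SH-SY5Y the fragment was rs581459 with 50, at -0.30, -2.24 and -1.80 and -1.46 ± 0.56.

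In HEK-293T they were rs112345465 with 100 bases in front (libraries at 1.05, 1.74 and 3.42, fitted 2.22 ± 0.87), rs301797 with 100, and rs581459 with 100, at 0.22, 1.07 and 0.83 and 0.71 ± 0.28. In PC-12 they were rs11121172 with 100, at 0.30 and 0.67 in libraries 1 and 3, rs112345465 with 100, at 1.61 and 2.87, and rs301797 with 50, at 0.80 and 1.43. All of these kept 1 sign within their line, and their adjusted p by edgeR was between 0.102 and 0.677. DESeq2 called these 3 of PC-12 and also rs12040455 with 150, rs301797 with 150 and rs4660761 with 100.

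The fragments that kept 1 sign in all 4 lines and had no RNA count of 0 numbered 10 of 34. The share among all 514 fragments was not counted, so whether 10 of 34 is unusual is not known. The largest mean allelic effects over the lines among them were -1.13, -0.96 and -0.94 for rs4648845 with 150 bases in front, rs581459 with 150 and rs301797 with 100, and 2.83, 1.09 and 0.68 for rs11121172 with 50, rs172531 with 100 and rs7537052 with 50. They were chosen for this sign and size, which are therefore a description.

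rs301797 with 100 bases in front gave -0.21, -1.60 and -1.58 in the libraries of HEK-293T, 0.38, -1.65 and -1.13 in Neuro-2a, -0.08 and -1.41 in PC-12 and -0.09, -1.70 and -1.32 in SH-SY5Y. Library 1 lay between -0.21 and 0.38 and every other library between -1.70 and -1.13. The fitted effect was -1.14 ± 0.44, -0.82 ± 0.57, -0.75 ± 0.45 and -1.05 ± 0.45, with edgeR p-values that missed the threshold after adjustment (0.355 to 0.677). In the same fragment, allele 2 had 2797, 1068 and 1718 CPM in the RNA of SH-SY5Y, against 1990.2, 1986 and 1897 CPM in the input, and allele 1 was the allele called above the input. With 50 bases in front the fitted effect of this SNP had the other sign in all 4 lines. It was 3.58 ± 2.46 in HEK-293T (with a count of 0 in RNA library 2), 1.63 ± 1.64 in Neuro-2a, 1.11 ± 0.40 in PC-12 and 2.67 ± 1.35 in SH-SY5Y. With 150 it was -0.40 ± 0.31, -0.09 ± 0.24, -0.34 ± 0.13 and -0.21 ± 0.34. None of these passed, and the difference between the fragments was not tested.

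rs581459 with 150 bases in front gave 0.10, -3.60 and -1.03 in HEK-293T, 0.62, -1.22 and -1.50 in Neuro-2a, -0.30 and -1.33 in PC-12 and -0.01, -1.85 and -0.72 in SH-SY5Y, and its fitted effects were -1.45 ± 1.00, -0.72 ± 0.63, -0.81 ± 0.36 and -0.85 ± 0.50. Its sign was not the same in the fragment with 100 bases in front, whose fitted effects were 0.71 ± 0.28, 0.67 ± 0.52, 0.53 ± 0.31 and 0.45 ± 0.36. Neither fragment passed in any line, and the difference between them was not tested.

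Of these 10 fragments, rs11121172 with 50 bases in front had the largest mean effect, with -0.33, 2.99 and 6.96 in HEK-293T, 0.01, 2.95 and 5.17 in Neuro-2a, 0.48 and 5.02 in PC-12 and -0.18, 2.45 and 6.37 in SH-SY5Y. Library 1 lay between -0.33 and 0.48 and library 3 above 5 in each line, and the fitted effects of 3.10 ± 2.00, 2.77 ± 1.41, 2.75 ± 1.68 and 2.71 ± 1.76 carried large errors. Allele 1 of this fragment had 2084, 843 and 264 CPM in the RNA of Neuro-2a and 3743, 1259 and 64.1 CPM in HEK-293T, against inputs of 1692 to 1765 CPM and 1763 to 1844 CPM. With 100 bases in front the effect of the same SNP was -0.10 ± 0.20, -0.13 ± 0.19, 0.48 ± 0.15 and 0.12 ± 0.17.

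rs172531 with 100 bases in front gave -0.19, 2.28 and 1.83 in HEK-293T, 0.38, 3.12 and 1.36 in Neuro-2a, 0.05 and 1.12 in PC-12 and 0.12, 1.46 and 0.96 in SH-SY5Y. rs7537052 with 50 bases in front gave 0.35, 0.19 and 1.19 in HEK-293T, -0.05, 1.66 and 1.18 in Neuro-2a, 0.12 and 0.59 in PC-12 and -0.21, 1.52 and 1.23 in SH-SY5Y. The values of library 1 were between -0.21 and 0.38 in both, and no other library was below 0. Their fitted effects reached 1.60 ± 0.75 and 0.94 ± 0.50 in Neuro-2a, where each was largest. For rs7537052 with 100 bases in front the fitted effect had the other sign in all 4 lines and did not pass. It was -0.36 ± 0.23 in HEK-293T, -0.75 ± 0.50 in Neuro-2a, -4.22 ± 4.87 in PC-12 and -0.93 ± 0.46 in SH-SY5Y. The PC-12 value held an RNA count of 0 in library 3.

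Without RNA library 1 the allelic effect passed for 3 rs-named fragments in HEK-293T (20.8% of all fragments), 7 in Neuro-2a (30.5% of all) and 12 in SH-SY5Y (46.9% of all). rs301797 with 100 bases in front passed in all 3, at -1.60 ± 0.11, -1.39 ± 0.21 and -1.52 ± 0.16 (edgeR adjusted p = 0.00456, 0.0153 and 0.00291). With 50 bases in front the same SNP passed in SH-SY5Y with the other sign, at 3.88 ± 0.98 (edgeR adjusted p = 0.0365). The fragments that passed in 2 of these lines were rs12083902 with 50, rs172531 with 100, rs4648845 with 150, rs581459 with 100 and rs7537052 with 50. PC-12 had 31 with a single RNA library left, where 89.3% of all fragments passed. Whether library 1 or the other libraries give the better estimate was not tested.

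The third comparison asked whether 1 allele had another activity when its SNP sat elsewhere in the fragment, as the log2 activity with the larger number of bases in front minus that with the smaller. There were 73 such rs-named pairs in PC-12 and 69 in each other line. None passed by edgeR, where the share of all pairs called was 0.337% in HEK-293T, 1.22% in Neuro-2a, 4.25% in PC-12 and 2.6% in SH-SY5Y. With no adjustment, 7, 10, 11 and 13 pairs had a p under 0.05 in these lines, in the same order, or 10.1%, 14.5%, 15.1% and 18.8% of the rs-named pairs, against 12.3%, 14.2%, 19.7% and 23.2% of all pairs. DESeq2 called 10, 10, 25 and 21, where it called 15.7%, 17.5%, 34.7% and 30.3% of all pairs. limma-voom called 0, 1, 3 and 3, where it called 1.52%, 3.86%, 6.45% and 6.37% of all pairs. The pairs that limma-voom called, named after their values were seen, were allele 1 of rs302719 (150 against 50) in Neuro-2a, allele 2 of rs4648845 (100 against 50), rs301798 (150 against 50) and rs4949526 (150 against 100) in SH-SY5Y, and allele 2 of rs302719 and of rs942820 (150 against 50 in both) and allele 1 of rs11121172 (150 against 100) in PC-12.

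The pairs with the smallest adjusted p were both in SH-SY5Y. Allele 2 of rs4648845, which was called above the input with 50 bases in front, had 1270.3, 1392 and 719 CPM in RNA with 100 bases in front, against 1309, 1582 and 1677 CPM in the input. The difference of 100 minus 50 was -1.89 ± 0.33 in SH-SY5Y (edgeR adjusted p = 0.0519), -1.28 ± 0.23 in HEK-293T, -1.21 ± 0.44 in Neuro-2a and -0.94 ± 0.43 in PC-12. The difference of 150 minus 50 was -1.996 ± 0.71 in SH-SY5Y, -1.48 ± 0.42 in HEK-293T, -1.84 ± 0.53 in Neuro-2a and -1.16 ± 0.68 in PC-12. So in these fits the allele had its highest activity with 50 bases in front in all 4 lines, though no difference passed by edgeR with all libraries. limma-voom called 100 minus 50 in SH-SY5Y, as named above.

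Allele 2 of rs4949526 had 454, 226 and 215 CPM in the RNA of SH-SY5Y with 150 bases in front, against an input of 513 to 525 CPM, and 4212, 2010.3 and 2005 CPM with 100 bases in front, against an input of 2595 to 2685 CPM. The difference of 150 minus 100 was -0.85 ± 0.14 (edgeR adjusted p = 0.0519), and -0.73 ± 0.19, -1.27 ± 0.48 and -0.28 ± 0.19 in HEK-293T, Neuro-2a and PC-12. For allele 2 of rs942820 in PC-12 the difference of 150 minus 50 was -0.87 ± 0.14 (edgeR adjusted p = 0.0624). For rs301797 the called allele 1 had a log2 activity of -0.79 ± 0.65, 0.87 ± 0.17 and -0.45 ± 0.32 with 50, 100 and 150 bases in front in SH-SY5Y, and -0.04 ± 0.20, 1.14 ± 0.21 and 0.39 ± 0.34 in PC-12. The middle placement was the highest in both lines.

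Allele 1 of rs302719, called below the input with 50 bases in front in Neuro-2a, had a log2 activity of -2.01 ± 0.31, -0.56 ± 0.38 and 0.45 ± 0.25 there with 50, 100 and 150 bases in front. The difference of 150 minus 50 was 2.47 ± 0.45 (edgeR adjusted p = 0.095), and the RNA values at 150 were 631, 1100.1 and 769 CPM, against an input of 596 to 621 CPM. In HEK-293T, PC-12 and SH-SY5Y the same difference was 1.24 ± 0.51, 0.78 ± 0.30 and 0.64 ± 0.54.

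Without RNA library 1 the placement difference passed for 17 rs-named pairs in HEK-293T (25.3% of all pairs), 18 in Neuro-2a (29.5% of all), 32 in SH-SY5Y (49.4% of all) and, with a single RNA library left, 61 in PC-12 (86.3% of all). In each of the 3 lines with 3 RNA libraries, allele 2 of rs4648845 then passed for 150 minus 50, at -2.74 to -1.78. Allele 1 of rs302719 passed in the same 3 lines for 150 minus 50, at 1.17 to 2.79, and its allele 2 at 0.63 to 1.84. Allele 2 of rs4949526 passed there for 150 minus 100, at -1.74 to -0.84, and allele 1 of rs301797 at -1.87 to -1.40. The others of the 7 pairs that passed in all 3 of these lines were in rs11121172 and rs581459. Allele 2 of rs11121172 passed for 100 minus 50, at -2.64 to -2.13, and allele 1 of rs581459 for 150 minus 50, at 1.24 to 1.95.

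The spread of activity among the rs-named alleles was summarised in 3 ways. The median range of an allele over its 3 placements, averaged over the lines, was 1.24 (n = 16 alleles with all 3), against 1.28 for all such alleles (n = 241). The median range over the 4 lines was 0.82 (n = 88), against 0.83 for all alleles, and the median difference between the alleles of a fragment was 0.66 (n = 34), as for all fragments. Ranges over 3 and over 4 values and a difference of 2 values are not on 1 footing, so the order of these 3 medians has no test.

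The fourth comparison asked whether activity differed between the lines, from the RNA counts of all 11 libraries. None of the 88 alleles passed by edgeR, nor did any of all 1436 alleles (0%). At an unadjusted p under 0.05 there were 3 rs-named alleles, against 2.79% of all alleles, DESeq2 called the same 3 (1.11% of all alleles), and limma-voom called none (0% of all alleles). For the allelic effect, none of 34 fragments passed, none had an unadjusted p under 0.05, and DESeq2 and limma-voom called none, against 0% of 514 fragments adjusted and 0.195% unadjusted.

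The 3 alleles were allele 1 of rs4648845 with 150 bases in front and allele 2 of rs942820 with 50 and with 150. For rs4648845 the log2 activity was 0.03 ± 0.17 in HEK-293T, 1.60 ± 0.16 in Neuro-2a, 0.61 ± 0.19 in PC-12 and 0.43 ± 0.19 in SH-SY5Y, and the test between lines gave an edgeR adjusted p of 0.371. For rs942820 with 150 bases in front the RNA libraries of Neuro-2a had 1614, 2688 and 1887 CPM, against 789, 1017 and 585 CPM in HEK-293T, 1039 and 834 CPM in PC-12 and 765, 857 and 711 CPM in SH-SY5Y, with an input of 1077 to 1156 CPM in the scaling of Neuro-2a. Neuro-2a was above the input in all 3 libraries and the other lines below it in all of theirs (edgeR adjusted p = 0.427). With 50 bases in front, whose values are given above, the test gave an edgeR adjusted p of 0.395. In all 3 Neuro-2a had the highest activity of the 4 lines.

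The other 10 SNPs had no allele called in any line by edgeR with all libraries. Without RNA library 1 each of them had an allele called in at least 2 of the lines with 3 RNA libraries, 8 of them in all 3. In those fits 31.8% of all alleles were called in HEK-293T, 41.3% in Neuro-2a and 54.9% in SH-SY5Y. The share of all SNPs with such a call was not counted. With all libraries, the log2 activities of these 10 SNPs spread on both sides of the input except in rs56335113. All 12 values of rs56335113 were below 0 and lay between -1.15 and -0.01, and its allele 2 with 50 bases in front was called in all 3 of these lines without library 1, at -1.10 to -0.29. rs7537052, with 24 values between -1.28 and 0.66, had 5 above 0. rs12083902 had 8 of 20 values above 0, between -1.35 and 1.51. rs12040455 had 5 of 16 above 0, between -1.92 and 1.28, and its fragment with 50 bases in front held a count of 0 in input library 2.

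rs172531 had 7 of 19 values above 0, between -2.21 and 1.41, and its allele 1 with 50 bases in front held an RNA count of 0 in library 3 of the 3 lines that list it. rs34428722 had 7 of 16 above 0, between -1.68 and 0.66. rs301798 had 5 of 15 above 0 and the lowest value of all, -7.73. rs34196118 had 8 of 12 above 0, between -0.76 and 2.50, and rs4949526 12 of 19, between -1.12 and 2.73. rs112345465 had 6 of 14 above 0, between -1.95 and 4.85; the highest was allele 2 with 100 bases in front in SH-SY5Y, at 30.9, 766 and 555 CPM in RNA, against 8.9, 26.6 and 11.4 CPM in the input.

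Of the SNPs with a call, rs4648845 had 12 of 20 values above 0 and rs6673880 10 of 12, whereas rs581459 had 7 of 24. rs301797, rs302719, rs3900555, rs4660761, rs11121172, rs1498232 and rs942820 had 12 of 24, 13 of 24, 13 of 20, 12 of 20, 13 of 21, 9 of 12 and 10 of 24 values above 0. Over all rs-named alleles the median log2 activity was -0.20 in HEK-293T, -0.05 in Neuro-2a, 0.02 in PC-12 and -0.03 in SH-SY5Y, close to the 0 that the scaling sets.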

How the data were processed

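The deposited tables hold counts per fragment and allele, 1 table per line, and per the file headers each has columns for both alleles in every RNA and plasmid input library. The counts are whole numbers and not normalised. Per the labels' protocols, polyadenylated RNA and plasmid DNA were amplified by PCR and sequenced in pairs. Per the submitters' processing notes limma 3.40.6 was used. Neither an aligner nor a counting tool nor a build is named in the sources used here.

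The 20 SNPs and the alternatives were chosen with earlier results of these data known. Every fit ran over all alleles of a line with a mean count of at least 10, and all rs-named alleles passed this minimum. Counts were tested in R 4.3.3 by edgeR 4.0.16 (quasi-likelihood test), with TMM scaling, two-sided, with Benjamini-Hochberg adjustment over the whole table at 0.05. The allelic effect and the placement difference are interactions with RNA, fitted with library as a term. Lines were compared on RNA counts alone, since the shared input cancels. SEs come from the estimate and its F statistic, and CPM use the scaled library sizes.

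Every SNP is named, and values in each library are given for alleles past the threshold, for alleles on 1 side of the input in all RNA libraries and for the 3 largest mean allelic effects in each direction that kept 1 sign in all lines. Some other alleles, fragments and pairs are also given by library, and these were named after their values were seen. The alternatives were DESeq2 1.42.0, limma-voom with limma 3.58.1, DESeq2's size factors, a minimum of 50 counts or none, alleles with an RNA count of 0 left out, the replicate number as a block, and each library left out in turn. The fits were tested on simulated data with independent libraries and the same dispersion for all alleles. Those data did not hold the departure of RNA library 1, so they do not show how often the fits call falsely here. RNA totals of 5875437 to 10201521 counts limit the counting error alone, because PCR reads are not independent molecules. Between replicates, chi-square over its degrees of freedom was at least 40.3, so no pair of libraries agreed within sampling noise. It was 40.3 to 48.9 between input libraries and 361 to 1526 between RNA libraries of a line. Within a line each fit takes RNA and input libraries to vary alike, so its p-values and SEs do not measure the RNA spread alone. RNA replicate 2 of PC-12 was not used here.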

Additional observations from a re-analysis of the deposited data

Results flagged for a closer look

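In 5 alleles every RNA library of 1 line lay above the mean of the input and every RNA library of another line below it. They were flagged for this alone, and the share of all alleles that did so was not counted. Within a line, 45.6% to 58.5% of rs-named alleles lay on 1 side of the input in all its RNA libraries. For position-named alleles this was 48.5% to 65.5%. For allele 2 of rs942820, placed with 150 bases in front, Neuro-2a was the line above the input, and the log2 activity there was 1.43 higher than in HEK-293T, 1.41 higher than in SH-SY5Y and 1.13 higher than in PC-12. The edgeR test over the 4 lines gave an adjusted p of 0.427 for it. The pairs of lines were not tested by themselves.

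Allele 1 of rs4660761 with 100 bases in front differed by 2.19 between PC-12 and HEK-293T, with a count of 0 in RNA library 2 of HEK-293T, and allele 2 of rs34196118 with 150 bases in front by 0.96 between SH-SY5Y and Neuro-2a, with a count of 0 in RNA library 2 of Neuro-2a. Allele 1 of rs4648845 with 100 bases in front differed by 0.79 between PC-12 and HEK-293T, and allele 1 of rs112345465 with 50 bases in front by 0.66 between HEK-293T and Neuro-2a. None of these 4 passed the edgeR test over the 4 lines.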

How the results depend on the processing

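The minimum of 50 counts, no minimum and DESeq2's size factors in edgeR kept every count of called rs-named features within 1.5 times its value. In Neuro-2a both minima tested the same 1471 alleles as the main fit, so they could not change a call there. For activity DESeq2 called 14 alleles in HEK-293T, 18 in Neuro-2a, 33 in PC-12 and 19 in SH-SY5Y. limma-voom called 1 in HEK-293T and 9 in SH-SY5Y. In Neuro-2a it called 6.67% of the rs-named alleles, against 7.61% of all. Without alleles at an RNA count of 0 the calls were 2 in HEK-293T, 10 in PC-12 and 10 in SH-SY5Y. In Neuro-2a that fit called 7.89% of the rs-named alleles, against 12.4% of all. With the replicate number as a block there were 0 in Neuro-2a, PC-12 and SH-SY5Y by edgeR (9, 3 and 12 at an unadjusted p under 0.05). In Neuro-2a the block left no call among all 1471 alleles. There 15.1% of all alleles had an unadjusted p under 0.05, against 10% of the rs-named ones. The block changed no other count of calls. For the allelic effect DESeq2 called 3 in Neuro-2a and 6 in PC-12. For placement DESeq2 called 10, 10, 25 and 21 in HEK-293T, Neuro-2a, PC-12 and SH-SY5Y, limma-voom 1, 3 and 3 in the last 3 of these, and the fit without counts of 0 found 1, 2 and 2 there. In Neuro-2a the fit without counts of 0 called 1.96% of the rs-named pairs, against 5.01% of all pairs. Between lines DESeq2 called 3 alleles. The cause of these shifts was not tested. Counts given here without a share of all features show how the calls moved between fits. They do not compare the rs-named features with the others. With each library left out in turn, the calls ranged over 0 to 25, 0 to 35, 0 to 82 and 0 to 47 alleles for activity in HEK-293T, Neuro-2a, PC-12 and SH-SY5Y. In the same order they ranged over 0 to 3, 0 to 7, 0 to 31 and 0 to 12 fragments for the allelic effect, and 0 to 17, 0 to 18, 0 to 61 and 0 to 32 pairs for placement. The highest were without RNA replicate 1. In PC-12, leaving out either RNA library left a single one, assumed to vary like the input. Between lines the range was 0 to 0 for activity, and also for the allelic effect where PC-12 kept both RNA libraries. Without PC-12 replicate 1 the allelic effect of rs7537052 with 100 bases in front was called by edgeR. PC-12 then had RNA library 3 alone, with a count of 0 in this fragment, so that call rested on 1 library.

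Same-numbered RNA libraries of different lines deviated together at r of 0.389 to 0.56 for replicate 1, 0.118 to 0.182 for replicate 2 and 0.0752 to 0.288 for replicate 3, over 0.1 in 14 of 15 pairs, and RNA with same-numbered input at -0.0525 to 0.109. The median r between RNA libraries of different lines was 0.255 for the same number and -0.214 for different numbers. Of the pairs with different numbers 8 of 30 were over 0.1, all of them between a library 2 and a library 3. RNA library 3 of Neuro-2a with library 2 of SH-SY5Y, for example, gave 0.187. Deviations were taken from the mean of each line, so the 2 libraries of PC-12 deviated by equal and opposite amounts. With 1 of the 15 pairs under 0.1 the number was kept as an alternative, and no label says what it stands for.

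The sign turned in few values. Allele 2 of rs942820 with 50 bases in front, in SH-SY5Y, was -0.00967 by limma-voom, -0.040 with the replicate block and -0.15 to 0.24 with 1 library left out, below 0 without RNA replicate 1, RNA replicate 3 or input replicate 2. Allele 2 of rs11121172 with 100 bases in front ranged over -0.0754 to 0.68 in Neuro-2a and -0.32 to 0.40 in HEK-293T, the lowest without RNA replicate 1. Allele 2 of rs12040455 with 50 in front ranged over -0.29 to 0.039 in HEK-293T and allele 1 of rs6673880 with 150 over -0.051 to 1.62 in Neuro-2a, the turned sign without RNA replicate 2. The allelic effect of rs4648845 with 150 bases in front in PC-12 was -1.87 without replicate 1 and 0.020 without replicate 3.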
